A study of Mus musculus with 12 samples.

Results

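Glycolysis splits glucose into pyruvate, and most of its steps are carried out by families of isozymes, closely related enzymes that catalyse 1 reaction but differ in kinetics, in regulation and in the tissues that use them. Brain runs almost entirely on glucose and is known for hexokinase 1, the C form of aldolase, the gamma form of enolase and the M form of pyruvate kinase, whereas liver makes glucose as well as using it and has its own L form of pyruvate kinase. The genes described here are 9 such isozymes: Hk1 for hexokinase, Pfkl, Pfkm and Pfkp for phosphofructokinase, Aldoa and Aldoc for aldolase, Eno2 for enolase, and Pkm and Pklr for pyruvate kinase. They were taken by symbol from a table of 55450 gene rows and fill 10 of them, because Aldoa has 2 rows. The main one is ENSMUSG00000030695.16, called Aldoa below.

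The study knocked out Vaultrc5, which encodes a short RNA of the vault particle class, in the mouse and profiled brain and liver. Total RNA depleted of ribosomal RNA was sequenced from male mice aged 7 to 9 weeks, in 4 groups of 3 libraries each: Vaultrc5+/+ brain, Vaultrc5-/- brain, Vaultrc5+/+ liver and Vaultrc5-/- liver. The controls are titled flx in the sample names and labelled wild type for genotype, and are called wild type here. The labels do not describe the knockout allele or say that libraries of 1 group came from separate animals, or that brain and liver of 1 number came from the same one, so p-values measure the spread between these libraries, which may be in part technical. The samples are bulk tissue of mixed cell types, in which fewer cells of a type and less RNA per cell cannot be told apart.

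Each brain library summed to between 14844937 and 18567362 counts and each liver library to between 23247425 and 27155478. The floor of detection was taken as 3 counts in a library, which is 0.162 to 0.202 CPM (counts in a library scaled to 1000000) on the unscaled total in brain and 0.110 to 0.129 CPM in liver. The counts of Vaultrc5 were 33, 39 and 48 counts in the wild-type livers and 4, 1 and 4 in the wild-type brains, and 0 in all 6 knockout libraries. Alb, which encodes the albumin of hepatocytes, lay at 40256 to 72022 CPM in liver and 0 to 0.221 CPM in brain, and Snap25, a synaptic protein gene of neurons, at 1382 to 1652 CPM in brain and 0 to 0.157 CPM in liver. All other CPM are scaled with TMM (trimmed mean of M-values) factors, which ran from 1.31 to 1.38 in brain and from 0.708 to 0.769 in liver. Scaling to library totals instead moved the median over all genes of the log2 fold change between wild-type brain and liver from 0.21 to 1.05, and that of each isozyme by a like amount toward brain. Levels are compared between genes only as TPM, which divides counts by gene length and by the library's own sum.

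Promoter windows of RefSeq (build GRCm38.p6, 250 bases before to 50 after each annotated start) were found for all 9 genes, 18 windows in all. Shown are the stretches that lie outside annotated exons for the gene that was far higher in liver, Pklr, and for the phosphofructokinase gene with the largest ratio of brain to liver, Pfkp. The Pklr stretch is chr3:89136373-89136571 on the plus strand and ends 51 bases short of the annotated start at 89136623. The Pfkp stretch is chr13:6648778-6649021 on the minus strand, before the start at 6648771. Capitals mark CACGGG or its reverse complement in Pklr, letters that resemble the sites of the carbohydrate response factor Mlxipl (ChREBP), and GGGCGG (the GC box bound by Sp1) or its reverse complement in Pfkp.
Pklr: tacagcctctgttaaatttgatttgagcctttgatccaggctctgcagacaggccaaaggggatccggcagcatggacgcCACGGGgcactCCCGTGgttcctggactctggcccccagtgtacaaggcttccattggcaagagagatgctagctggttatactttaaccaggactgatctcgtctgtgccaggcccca
Pfkp: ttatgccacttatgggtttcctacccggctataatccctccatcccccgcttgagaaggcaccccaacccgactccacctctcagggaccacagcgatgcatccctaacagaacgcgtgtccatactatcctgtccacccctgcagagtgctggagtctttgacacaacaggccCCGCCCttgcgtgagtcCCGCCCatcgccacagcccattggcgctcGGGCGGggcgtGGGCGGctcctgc
The Pklr stretch holds CACGGG on either strand at first bases 170 and 159 before the start, 1 copy in each orientation with 5 bases between them. This arrangement, CACGGG, any 5 bases and CCCGTG, occurs in 1 of the 32851 windows of the table, the Pklr one. It was searched for after the Pklr sequence had been read, so its rarity is a description, and CACGGG on either strand occurs in 10.1% of all windows and in 3 of the 18. The GC box occurs 4 times in the Pfkp window, in 5 of the 9 genes (Aldoa, Aldoc, Pfkl, Pfkp and Pkm), in 6 of the 18 windows and in 35.7% of all windows. Of the other letters searched on both strands, ACGTG, the core of the hypoxia response element, was in 7 of the 18 windows against 19.6% of all, CACGTG, the E-box that contains it, in 1 against 7.15%, and TATAAA in 2 against 13.6%. Some windows of 1 gene overlap, a match is not evidence of binding, and the counts used below do not tell which start was used.

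**Figure D1:**
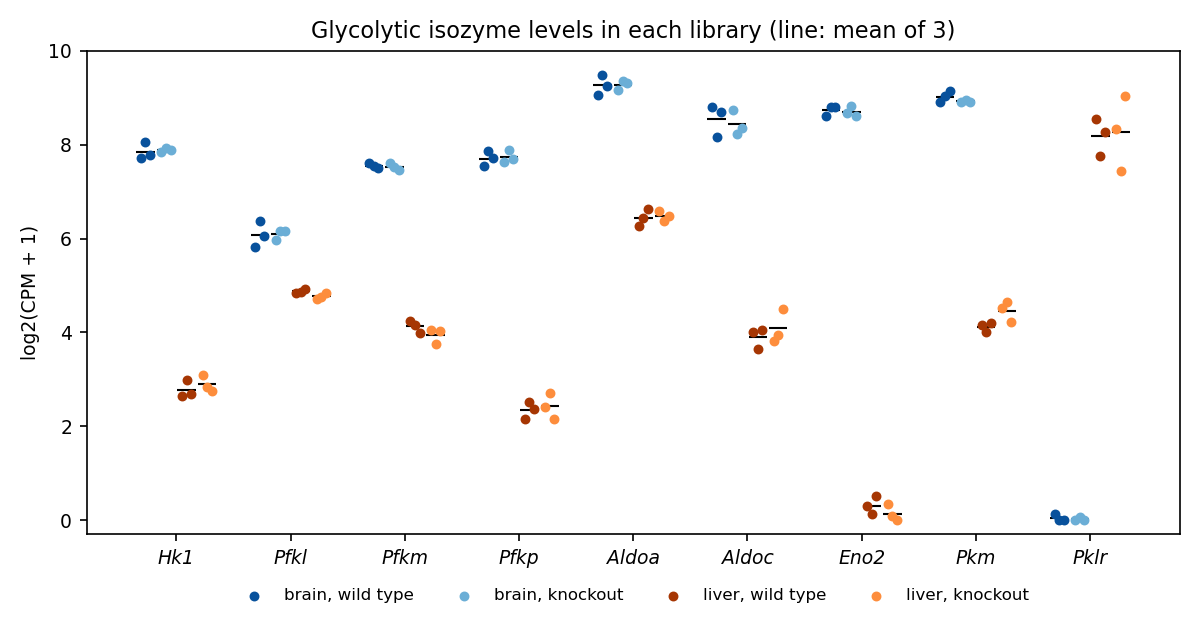
Levels of the 9 isozyme genes as log2(CPM + 1), with 1 point per library and a line at the mean of each group of 3 (dark blue, wild-type brain; light blue, knockout brain; brown, wild-type liver; orange, knockout liver). Brain points lie above liver points for 8 genes and below them for Pklr, and the genotypes of a tissue lie close together.

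Brain and liver were compared within each genotype, with no library shared between the wild-type and the knockout comparison. Of the 10 rows, all tested in the wild type, 9 were called higher in brain and 1, Pklr, higher in liver (edgeR quasi-likelihood test, Benjamini-Hochberg adjusted p under 0.05). Of all 18850 genes tested, 78.6% were called, 43.9% higher in brain and 34.7% higher in liver, so a call is the usual outcome of this comparison and the genes differ from one another by the size of the difference. With library totals the split over all genes was 61.7% higher in brain and 21.2% higher in liver, and the 10 calls kept their directions. In the knockout, 8 of 9 tested rows were called higher in brain and Pklr higher in liver, against 78.7% of 18785 genes called (43.5% and 35.2%). The CPM ranges of brain and liver did not overlap for any of the 10 rows in either genotype, as was the case for 82.4% of all genes tested in each (45.8% higher in brain and 36.6% higher in liver in the wild type, 45.9% and 36.5% in the knockout).

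The first step, phosphorylation of glucose, is done in brain by hexokinase 1, which works at low glucose and is held back by its product. Hk1 (ENSMUSG00000037012.18; chromosome 10, 62268855 to 62379908, minus strand, GRCm38) lay at 209.8, 265 and 218 CPM in wild-type brain replicates 1 to 3 and at 5.24, 6.93 and 5.40 CPM in wild-type liver. In the knockout it lay at 229, 242 and 235 CPM in brain and 7.47, 6.20 and 5.78 CPM in liver. Every brain library was far above every liver library, and within a tissue the genotypes overlapped. The difference was 39.5-fold in the wild type (log2 fold change 5.31 ± 0.18, SE, edgeR adjusted p = 1.48e-07) and 35.9-fold in the knockout (log2 5.17 ± 0.14). Of other hexokinase genes, Hk2 lay at 2.75 to 7.22 CPM in brain and 1.80 to 4.17 in liver, Hk3 at 0.494 to 0.781 and 3.20 to 5.86, and Hkdc1 at 5.23 to 13.0 and 0.112 to 1.52. Exons of Hk1 overlap those of Hk1os on the other strand by 157 bases, and the use of strand in counting is not given in the sources used here.

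Phosphofructokinase, the main control point of glycolysis, is a tetramer built from the L, M and P subunits of Pfkl, Pfkm and Pfkp. The 3 genes differed widely in how far they stood apart between the tissues, with Pfkl the least apart. Pfkp (ENSMUSG00000021196.14; chromosome 13, 6579768 to 6648777, minus strand), the platelet form, lay at 185, 232 and 208 CPM in wild-type brain and 3.43, 4.73 and 4.14 in wild-type liver. Its knockout libraries were at 197, 235 and 207 CPM in brain and 4.32, 5.52 and 3.48 in liver. The tissues were separated by 50.8-fold in the wild type (log2 5.67 ± 0.17, SE, edgeR adjusted p = 1.06e-07) and 47.4-fold in the knockout, with a few CPM left in liver. Pfkm (ENSMUSG00000033065.14; chromosome 15, 98092589 to 98132451, plus strand), the muscle form, lay at 194, 185 and 182 CPM in wild-type brain and 17.9, 16.7 and 14.9 in wild-type liver. The knockout values of Pfkm were 194, 182 and 174 CPM in brain and 15.6, 12.6 and 15.3 in liver. Brain was again above liver in every library, by 11.3-fold in the wild type (log2 3.50 ± 0.12, SE, edgeR adjusted p = 1.45e-07) and 12.5-fold in the knockout. Pfkl (ENSMUSG00000020277.10; chromosome 10, 77986947 to 78010083, minus strand), the liver form, was also higher in brain in CPM, at 55.8, 81.5 and 65.1 in the wild type against 27.8, 28.3 and 29.2 in liver. Its knockout brains were at 61.6, 70.3 and 70.7 CPM and its knockout livers at 25.4, 25.9 and 27.8. The lowest brain library stood above the highest liver library, but the difference of 2.38-fold (log2 1.25 ± 0.15, SE, edgeR adjusted p = 0.000117) was the smallest among the 10 rows, and 56.3% of all genes tested had a larger one. In the knockout it was 2.54-fold, and with library totals the wild-type log2 value was 2.09.

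Within the phosphofructokinase family the composition differed between the tissues. Pfkm made up 68.6% ± 3.56 of the summed TPM in wild-type brain, Pfkp 19.0% ± 1.63 and Pfkl 12.4% ± 1.97 (SD, n = 3). In wild-type liver Pfkl held 44.8% ± 2.69 beside 52.0% ± 3.00 for Pfkm, and Pfkp was at 3.23% ± 0.545. The order of Pfkm and Pfkl in liver depends on the length used. These shares divide by the union of all annotated exons, which for Pfkp is 13401 bases against 4145 in its longest coding transcript. With the longest coding transcript the liver was 53.1% Pfkl, 40.0% Pfkm and 6.90% Pfkp, and the brain 48.8% Pfkm, 37.7% Pfkp and 13.5% Pfkl. Under both lengths Pfkl had a larger share in each liver library than in any brain library, and Pfkp a smaller one. The summed TPM of the family was 267 ± 18.2 in wild-type brain and 11.6 ± 0.342 in wild-type liver (SD, n = 3). Exons of Pfkp overlap those of Pitrm1 on the other strand by 748 bases. Those of Pfkm overlap Gm26513 on its own strand by 341 bases, and Pfkm had counts that were not whole numbers in 6 of 12 libraries.

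Aldolase cleaves fructose 1,6-bisphosphate, and its A form is that of muscle and most tissues and its C form is known in brain from astrocytes and Purkinje cells. Aldoa (chromosome 7, 126795234 to 126800751, minus strand) lay at 535, 714 and 610.2 CPM in wild-type brain and 76.4, 85.2 and 97.6 in wild-type liver. In the knockout Aldoa was at 570.4, 657 and 632 CPM in brain and 94.6, 81.7 and 88.8 in liver. It was 7.20-fold higher in wild-type brain (log2 2.85 ± 0.16, SE, edgeR adjusted p = 1.8e-06), 6.94-fold in the knockout, and remained well detected in liver. Aldoc (ENSMUSG00000017390.15; chromosome 11, 78322968 to 78327781, plus strand) lay at 444, 284 and 413 CPM in wild-type brain and 15.2, 11.5 and 15.6 in wild-type liver. The corresponding knockout values were 428, 297 and 328 and 13.1, 14.5 and 21.5 CPM. Every brain library was far above every liver library, although Aldoc varied more among the brains than any other member with brain expression. The difference was 27.1-fold in the wild type (log2 4.76 ± 0.23, SE, edgeR adjusted p = 8.32e-07) and 21.3-fold in the knockout. The second Aldoa row (ENSMUSG00000114515.2; chromosome 7, 126800790 to 126809108), a gene model that lies just beside the main one on the same strand, had 8 to 14 counts per brain library and 2 counts in the 6 livers together, too few for a fold of use (edgeR adjusted p = 0.00355 in the wild type; not tested in the knockout).

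Enolase forms phosphoenolpyruvate, and Eno2 encodes its gamma subunit, long used as a marker of neurons. Eno2 (ENSMUSG00000004267.16; chromosome 6, 124760053 to 124769673, minus strand) lay at 388, 447 and 445 CPM in wild-type and 407, 454 and 391 CPM in knockout brain. In liver it had 4, 2 and 8 counts in the wild-type libraries and 5, 1 and 0 in the knockout libraries, on both sides of the floor of 3 counts per library. The summed counts gave a ratio of 1738 between wild-type brain and liver (95% exact interval 1036 to 3179, counting error only, from 30076 against 14 counts scaled to library size) and of 3800.3 between knockout brain and liver (1746 to 10357, from 27024 against 6). The edgeR log2 fold change was 10.73 ± 0.30 (SE, adjusted p = 8.45e-08) in the wild type, a size that rests on the 14 liver counts. This SE is narrower than counting error alone. The fitted value was 11.33 without wild-type liver replicate 3, which held 8 of the 14 counts. Without liver knockout replicate 1, which held 5 of the 6 knockout liver counts, the fitted value in the knockout went from 11.80 to 13.53. The ubiquitous alpha gene Eno1 lay at 261 to 315 CPM in brain and 303 to 437 CPM in liver. Eno2 made up 62.1% ± 0.801 of the TPM of Eno1, Eno2 and Eno3 in wild-type brain (51.4% with the longest coding transcripts), and Eno1 made up 98.2% ± 0.542 in wild-type liver (SD, n = 3). Counts of Eno1 were fractional in all 12 libraries, as were those of its near copy Eno1b, so the split between these is uncertain. Eno1b had 830.2 counts in liver knockout replicate 2 and 50.8 to 182 in the other 5 livers.

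Pyruvate kinase, the last step, is encoded by Pkm in most tissues and by Pklr in liver and red cells. Pkm (ENSMUSG00000032294.17; chromosome 9, 59656368 to 59679375, plus strand) lay at 478, 522 and 560.4 CPM in wild-type brain and 16.9, 15.2 and 17.4 in wild-type liver. Its knockout values were 483, 494 and 482 CPM in brain and 21.9, 24.2 and 17.6 in liver. Brain exceeded liver by 31.7-fold in the wild type (log2 4.99 ± 0.13, SE, edgeR adjusted p = 7.84e-08) and by 22.6-fold in the knockout (log2 4.50 ± 0.16). Counts per gene do not separate the M1 and M2 splice forms of Pkm. Its counts were fractional in all 12 libraries, and its exons overlap those of Gm49759 on the same strand by 767 bases.

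Pklr (ENSMUSG00000041237.12; chromosome 3, 89136142 to 89146784, plus strand) showed the opposite pattern. It had 2, 0 and 0 counts in the wild-type brains and 0, 1 and 0 in the knockout brains. In liver it lay at 374, 216 and 307 CPM in the wild type and 322, 171 and 521 CPM in the knockout, so that every liver library was far above every brain library, none of which held more than 2 counts. Summed counts gave a ratio of liver to brain of 10403 in the wild type (95% exact interval 2879 to 85905, counting error only, 16829 against 2 counts) and of 21849.5 in the knockout (3921 to 863057, 18436 against 1). The fitted log2 fold change for brain over liver was -13.08 ± 0.51 in the wild type (SE, edgeR adjusted p = 2.81e-07) and rested on those few brain counts. This SE is narrower than counting error alone and understates the uncertainty. The fitted value was -15.62 without wild-type brain replicate 1, which held both counts. In the knockout it went from -13.94 to -15.69 without knockout brain replicate 2, which held the 1 count. Exons of Pklr overlap those of Hcn3 on the other strand by 711 bases. Pkm made up all but 0.00955% of pyruvate kinase TPM in wild-type brain, a remainder that rested on the same 2 counts in replicate 1, and Pklr 96.4% ± 0.752 in wild-type and 95.1% ± 3.18 in knockout liver (SD, n = 3).

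**Figure D2:**
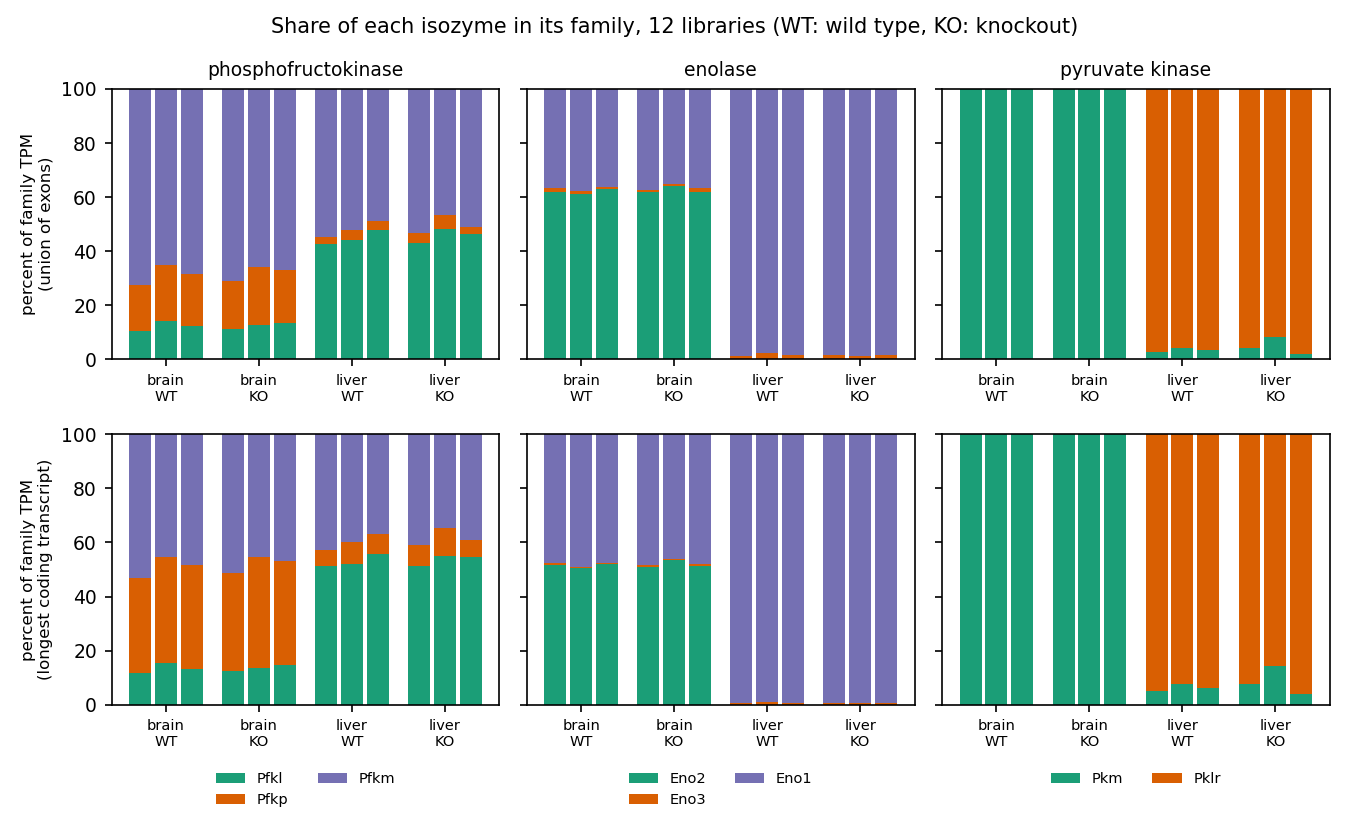
Percent of the family's summed TPM held by each isozyme in the 12 libraries (bars, 3 per group) for 3 families, with gene length taken as the union of exons (upper row) or the longest coding transcript (lower row). By group mean the leading isozyme differs between brain and liver in enolase and pyruvate kinase in both rows, and in phosphofructokinase in the lower row only.

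The leading isozyme differed between wild-type brain and liver in 2 of these 3 families with the union of exons and in all 3 with the longest coding transcript. The order of levels was read from TPM over the 6 libraries of a tissue. In brain Aldoa was highest at 694 ± 84.6 (SD, n = 6 for these values), with no overlap with the next. Aldoc at 365 ± 74.1, Pkm at 328 ± 32.3 and Eno2 at 293 ± 31.0 followed and overlapped in turn. Then came Pfkm at 180.5 ± 12.9, Hk1 at 89.1 ± 9.53, Pfkp at 51.2 ± 5.91 and Pfkl at 33.0 ± 4.87, none overlapping the next, and Pklr below the floor. In liver Pklr was highest at 122 ± 55.8, then Aldoa at 36.4 ± 4.68, with no overlap. Aldoc at 5.71 ± 1.69, Pfkm at 5.65 ± 0.861, Pfkl at 4.98 ± 0.541 and Pkm at 4.54 ± 0.647 could not be ranked, as each overlapped the next. Hk1 at 0.874 ± 0.116, Pfkp at 0.383 ± 0.0478 and Eno2 near the floor lay below them in that order, without overlap. With the longest coding transcript the brain order put Pkm (579) and Eno2 (423) before Aldoc (368), the ranges of Pfkm, Hk1 and Pfkp overlapped in turn, and Pklr (120.0) and Aldoa (60.6) overlapped in liver.

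**Figure D3:**
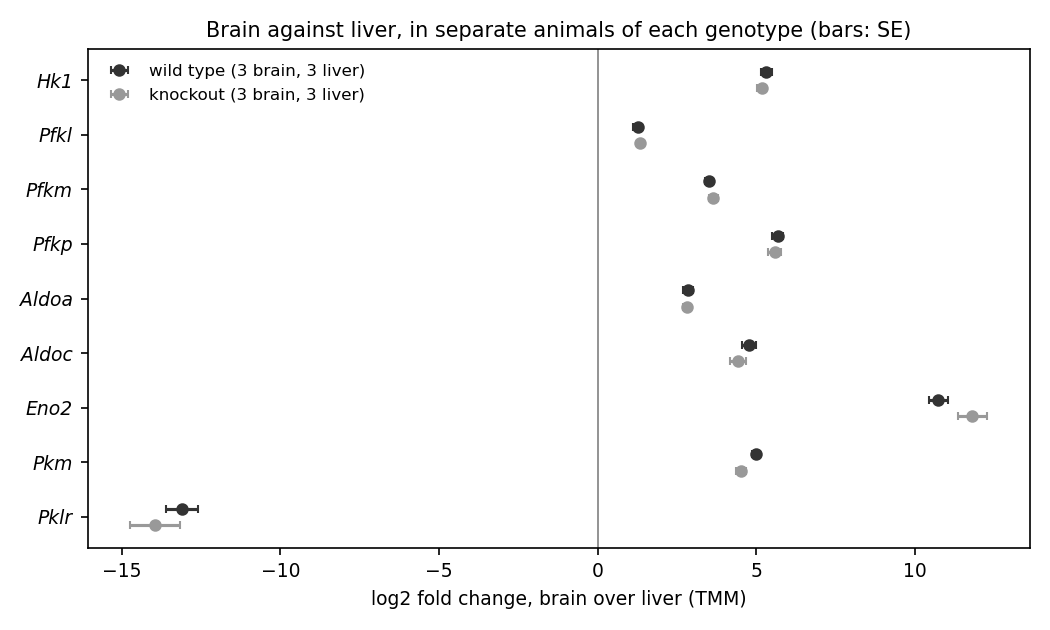
Log2 fold change of brain over liver for each isozyme (x axis, TMM scale) in the wild type (dark) and the knockout (grey), with SE as bars. Values lie between 1.25 for Pfkl and 11.80 for Eno2 on the brain side, and at -13.08 and -13.94 for Pklr. Those of Eno2 and Pklr depend on a few counts in the low tissue, and their bars are narrower than counting error alone.

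The knockout was then compared with the wild type within each tissue, the contrast the study was designed around. In brain 0 of the 9 rows tested passed (edgeR, adjusted p = 1.00 for each), beside 0% of all 18075 genes and 0.675% (122 genes) with an unadjusted p under 0.05. DESeq2 called 0 genes. The share of 0.675% is below what a threshold of 0.05 would give with no difference at all, so the test was strict here. The count of 0 therefore does not show that the genotypes are alike. With edgeR, 406 genes had an unadjusted p under 0.05 with the replicate block and 615 without wild-type replicate 2. The log2 fold changes of knockout over wild type ran from -0.13 for Aldoc to 0.02 for Pfkp, 2 positive and 7 negative (Aldoc from -0.30 without wild-type replicate 2 to -0.0079 without wild-type replicate 1, and Pkm from -0.17 without wild-type replicate 1 to -0.043 without wild-type replicate 3), with a median of -0.04 beside -0.01 over all genes. Their SEs ran from 0.09 for Pfkm to 0.21 for Aldoc among the 8 main rows, and to 0.35 for the second Aldoa row. The smallest unadjusted p was that of Pkm (log2 -0.11 ± 0.10, SE, edgeR unadjusted p = 0.32). No member had separate ranges in the 2 genotypes, as 4.23% of all genes did (2.09% with the knockout above and 2.14% below). Pklr was too low in brain to be tested.

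In liver 0 of the 8 rows tested passed, beside 0% of all 15329 genes and 3.5% (536 genes) with an unadjusted p under 0.05; DESeq2 called 10 genes and edgeR blocked on the replicate number 2 genes, none of them a member. Eno2 and the second Aldoa row were too low to be tested. The log2 values ran from -0.18 for Pfkm to 0.37 for Pkm (Pfkm from -0.25 without wild-type replicate 3 to -0.096 without knockout replicate 2), 6 positive and 2 negative, with a median of 0.14 beside 0.01 over all genes. Pkm was the 1 member whose ranges did not overlap, at 15.2 to 17.4 CPM in the wild type and 17.6 to 24.2 in the knockout, where 9.62% of all genes had separate ranges, 4.16% with the knockout above and 5.45% with it below. Its difference was 1.30-fold (log2 0.37 ± 0.13, SE; edgeR unadjusted p = 0.0252, adjusted p = 0.992 over 15329 genes), and it did not pass. The unadjusted edgeR p was 0.0314 when blocked on the replicate number, and it ran from 0.00524 to 0.0896 with 1 library left out, at log2 values of 0.26 without knockout replicate 2 to 0.48 without knockout replicate 3.

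Knockout liver replicate 2, the highest in Pkm at 24.2 CPM, was also the highest in the summed level of the 5 microglia and Kupffer cell markers (Cx3cr1, P2ry12, Tmem119, Clec4f and Cd5l). All 5 were detected in liver, and they summed to 107, 146 and 131 CPM in wild-type liver and to 146, 276 and 117 CPM in knockout liver. Among the wild-type livers, replicate 2 was instead the highest in these markers and the lowest in Pkm, at 15.2 CPM. The 4 endothelial markers (Pecam1, Cldn5, Cdh5 and Tek) summed to 88.6, 92.3 and 103 CPM in the wild type and 117, 115 and 102 CPM in the knockout, and the 4 hepatocyte markers (Alb, Apoa1, Serpina1a and Cps1) to 81305, 68737 and 86370.3 CPM and 67307, 54938 and 88256 CPM. Knockout liver replicate 2 was the lowest of the 6 in hepatocyte markers. The part of these markers in the Pkm values was not tested. As a share of pyruvate kinase TPM, Pkm was 8.39% in that library and 2.14% to 4.35% in the other 5. That share also depends on Pklr, which was lowest in the same library, at 171 CPM against 216 to 521 CPM in the other 5.

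**Figure D4:**
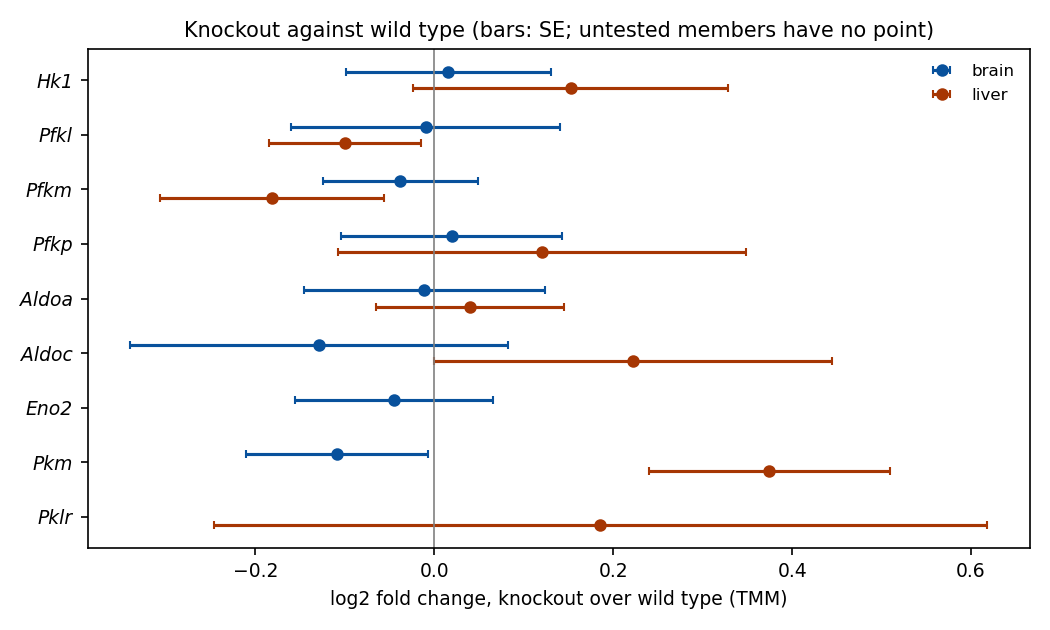
Log2 fold change of knockout over wild type for each isozyme in brain (blue) and liver (brown), with SE as bars. All points lie between -0.18 and 0.37, and Pkm in liver is the 1 member more than 2 SE from 0. Pklr in brain and Eno2 in liver were not tested.

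Pklr was the least even in liver of the members above the floor there. Its 6 libraries spanned 171 to 521 CPM, and the knockout held both ends (replicate 2 lowest, replicate 3 highest). Its knockout-over-wild-type value had the widest SE of the 8 (log2 0.19 ± 0.43, edgeR adjusted p = 0.994). The fitted value was -0.29 without knockout replicate 3 and 0.50 without knockout replicate 2. Mlxipl, which encodes the glucose-sensing factor ChREBP, at 718, 478 and 789 CPM in the knockout and 591, 631 and 649 in the wild type, had the lowest and the highest library in common with Pklr. So did the hepatocyte markers given above, Eno1 and 2 genes of hepatocyte glucose handling, so the match was not particular to Mlxipl. The glucose transporter gene Slc2a2 was at 435, 279 and 696 CPM in knockout liver, against 480.1 to 561 in wild-type liver. The gluconeogenic gene G6pc was at 375, 374 and 1066 CPM in knockout liver, with nearly equal values in the lower pair, against 479.5 to 798 in wild-type liver. The 5 red cell markers (Hba-a1, Hba-a2, Hbb-bs, Hbb-bt and Alas2), of cells that also use Pklr, summed to 151, 118 and 108 CPM in wild-type and 163, 159 and 136 CPM in knockout liver. The part of these genes, of the red cell markers and of the hepatocyte markers in the Pklr values was not tested. The gluconeogenic gene Pck1 was lower in both libraries numbered 1, at 1036 and 1191 CPM, than in the other 4, at 2536 to 2787 CPM.

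**Figure D5:**
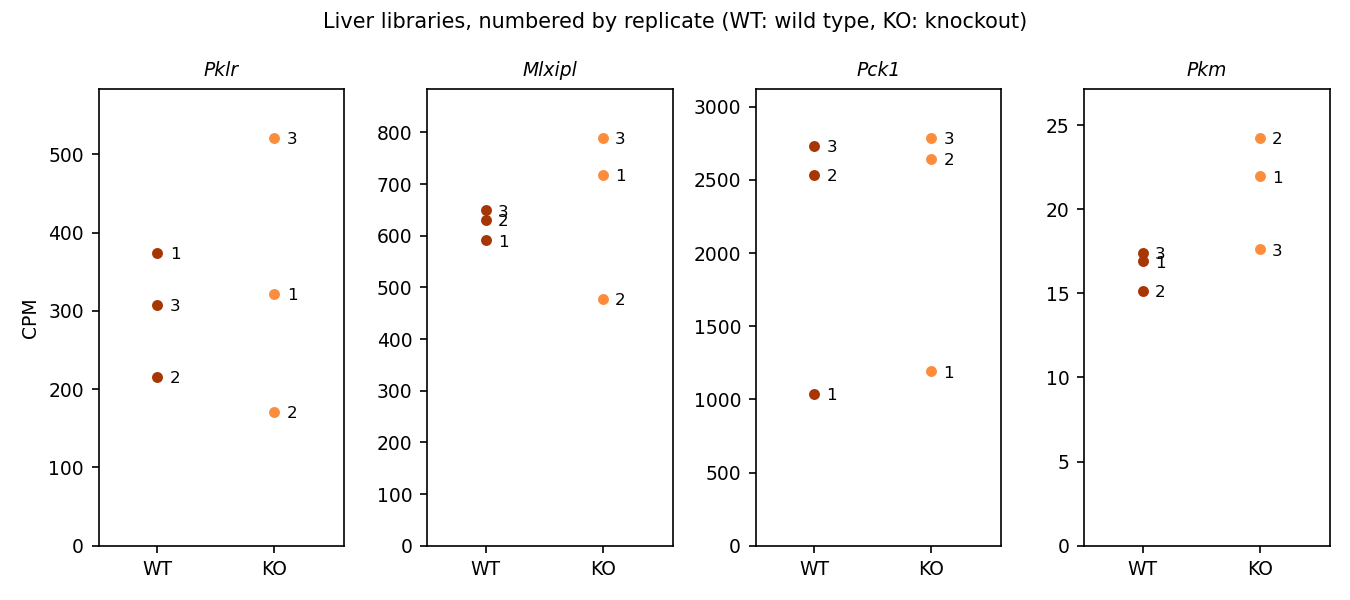
CPM of Pklr, Mlxipl, Pck1 and Pkm in the 6 liver libraries, wild type (WT) and knockout (KO), each point numbered by its replicate, with a separate linear axis from 0 for each gene. Pklr and Mlxipl are lowest in knockout replicate 2 and highest in knockout replicate 3. Pkm is highest in knockout replicate 2.

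The difference of the genotype effect between liver and brain was tested on all 12 libraries. Of the 10 rows 0 passed. For Pklr, Eno2 and the second Aldoa row, which entered through the tissue where they are high, the genotype effect in the other tissue rests on 0 to 14 counts per group and could not be measured, which leaves 7 rows. The count of 0 stands beside 0% of 20141 genes and 2.43% (489 genes) with an unadjusted p under 0.05; DESeq2 called 1 gene and edgeR with the replicate block 2, none a member. Pkm had the smallest unadjusted p of the members (log2 0.46 ± 0.17, SE, liver effect minus brain effect; edgeR unadjusted p = 0.0209, adjusted p = 1). The other 6 isozymes with brain and liver counts well above the floor had values from -0.16 for Pfkm to 0.33 for Aldoc. With 1 library left out Pfkm ran from -0.23 (without wild-type liver replicate 3) to -0.072 (without knockout liver replicate 2). Aldoc ran from 0.079 (without knockout liver replicate 3) to 0.51 (without wild-type brain replicate 2). The same quantity, from separate fits, is the difference between the wild-type and the knockout tissue contrasts given above.

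Among the brain libraries the isozymes did not vary alike. Aldoc was lowest in the libraries numbered 2, at 284 CPM in the wild type and 297 in the knockout, and highest in those numbered 1, at 444 and 428. Aldoa, Hk1 and Pfkp were highest in the libraries numbered 2 and lowest in those numbered 1, in both genotypes. Pfkm, Eno2 and Pkm varied less, with the highest of the 6 brain libraries 1.11, 1.17 and 1.17 times the lowest, against 1.56 times for Aldoc. The 5 astrocyte markers (Aqp4, Aldh1l1, Gfap, Slc1a3 and Gja1) summed to 813, 525 and 752 CPM in wild-type and 695, 534 and 605 CPM in knockout brain, and the 4 cerebellar markers (Pcp2, Calb1, Cbln1 and Gabra6) to 643, 77.1 and 185 CPM and 614, 58.3 and 297 CPM. Both lists were lowest in the libraries numbered 2 and highest in those numbered 1. The 4 neuron markers (Snap25, Syt1, Rbfox3 and Stmn2) summed to 2541, 3343 and 2577 CPM and 2808, 3179.7 and 2856 CPM, highest in the libraries numbered 2. The part of these markers in the isozyme values was not tested. The astrocyte list is not specific to brain across tissues, since it summed to 1029.7 to 1546 CPM in liver.

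The other genes of glucose use were counted by list for brain over liver in the wild type, where the all-gene median was a log2 fold change of 0.21. These counts lean on the scaling, since 25 of the 80 listed genes tested were called higher in brain and 41 lower with TMM, against 39 and 25 with library totals. Of all genes tested with TMM, 43.9% were called higher in brain and 34.7% lower. The genes named below, from the 3 largest called differences in each direction of a list, kept their direction under both unless stated. Of 19 other glycolytic enzymes tested, 7 were called higher in brain and 8 lower, with a median of -0.21 (11 and 4 with library totals, median 0.62). The largest on the brain side were Ldhb (log2 6.51 ± 0.19, SE), the heart-type lactate dehydrogenase subunit, and 2 genes of few counts, Pgam2, the muscle phosphoglycerate mutase, with 17, 64 and 16 counts in brain and 0 in all 3 livers, and Eno4, with 25, 30 and 36 counts in brain and 1, 0 and 0 in liver. Hk3 (-2.64 ± 0.26) was among the 8 higher in liver. Of the 6 regulators of the early steps, 2 were called in each direction, with a median of -0.58 (3 higher and 2 lower with library totals, median 0.25). Pfkfb4 (2.72 ± 0.33) and Tigar (0.75 ± 0.17), which act on fructose 2,6-bisphosphate, an activator of phosphofructokinase, were higher in brain, and Pfkfb1 (-5.89 ± 0.29), the liver bifunctional enzyme, in liver.

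Of the 12 transcription factors listed for glycolytic genes, 1 was called higher in brain and 9 lower, with a median of -1.19 (3 and 6 with library totals, median -0.35). The glucose-sensing pair divided, with Mlxipl at -8.97 ± 0.18 and its relative Mlxip (MondoA) at 0.67 ± 0.10, and the hepatocyte factor Hnf4a had at most 2 counts in any brain library against 655 to 844 CPM in liver. Of the 16 transporters tested, 9 were called higher in brain and 6 lower, with a median of 1.89 (9 and 3 with library totals, median 2.72). The neuronal glucose transporter Slc2a3 (6.70 ± 0.16), the inositol transporter Slc2a13 (6.42 ± 0.27) and Slc2a6 (6.12 ± 0.51) led in brain, and the hepatocyte glucose transporter Slc2a2 (-11.52 ± 0.32), the urate transporter Slc2a9 (-5.99 ± 0.25) and the fructose transporter Slc2a5 (-2.13 ± 0.27) in liver. Of the 14 genes for the entry of pyruvate into mitochondria, 2 were called higher in brain, the pyruvate dehydrogenase phosphatase Pdp1 (5.59 ± 0.27) and the kinase Pdk3 (4.69 ± 0.24), and 9 lower, led by Pdp2 (-2.74 ± 0.15) and the carriers Mpc2 (-1.97 ± 0.11) and Mpc1 (-1.47 ± 0.10), with a median of -0.76. With library totals this list gave 6 higher and 4 lower, with a median of 0.08, so its lean turns with the scaling.

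Of the 7 genes tested that bypass glycolysis in the making of glucose, 5 were called higher in liver and 2 in brain, with a median of -3.65. G6pc, Pck1 and Fbp1 lay at 374 to 1066, 1036 to 2787 and 492 to 717 CPM in liver and at 0, 0 to 0.781 and 0 to 0.265 CPM in brain, while Pck2 (2.35 ± 0.31) and G6pc3 (1.97 ± 0.17), the mitochondrial and the widely expressed relatives, were higher in brain. Among the 6 splicing factors known to act on Pkm, 2 were called in each direction, with a median of -0.03 (5 higher and 1 lower with library totals, median 0.81). Ptbp2, the neuronal form of the polypyrimidine tract binding protein (2.03 ± 0.11), and Hnrnpa1 (0.93 ± 0.10) were higher in brain, and Ptbp1 (-2.49 ± 0.10) and Hnrnpa2b1 (-0.50 ± 0.12) in liver, the last reversing to 0.34 with library totals. In the knockout 20 of the listed genes were called higher in brain and 43 lower (38 and 25 with library totals). No listed gene was called by edgeR between the genotypes in either tissue or in the interaction.

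For each isozyme the gene with the most similar profile was the one with the smallest root mean square difference of log2(CPM + 1), centred on each gene's mean, over the 12 libraries and among 10166 genes with a mean of at least 10 CPM. The step between the tissues is shared by all 12 points. They were Mfap3l for Hk1 (0.0977), Herc2 for Pfkl (0.0598), Macrod2 for Pfkm (0.112), Nbea for Pfkp (0.104), Purb for Aldoa (0.0842), Cdh18 for Aldoc (0.208), the synaptic complexin gene Cplx1 for Eno2 (0.114), Oxct1, the first enzyme of ketone body use, for Pkm (0.107), and the cytochrome P450 gene Cyp2c54 for Pklr (0.228). Aldoc and Pklr, the least even members among libraries of a tissue where they were well detected, had the least close neighbours. Oxct1 lay at 139 ± 5.25 CPM in brain and 4.68 ± 0.819 CPM in liver (SD, n = 6), and Cyp2c54 at 0 CPM in brain and 287 ± 88.1 CPM in liver. The added 1 CPM narrows the ratio of genes that are low in 1 tissue, so a neighbour can differ in that ratio. Cdh18, at 29.6 CPM in brain and 0.424 in liver, and Mfap3l, at 59.5 and 0.820, had wider ratios than Aldoc and Hk1.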

How the data were processed

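Ribosome-depleted total RNA was sequenced with single-end reads, per the labels' protocols, and reads were trimmed with cutadapt and aligned with STAR to mm10, per the submitters' processing notes; how reads were counted, and whether by strand, is not given in the sources used here. The authors deposited 1 table of expected counts per gene, and 5.06% to 5.71% of the values in a library are not whole. They were rounded to whole counts. All 55450 identifiers and symbols matched GENCODE M21 on GRCm38, the source of coordinates and lengths. The 9 genes and the lists were chosen with earlier results of these data known.

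Comparisons used edgeR 4.0.16 (R 4.3.3; TMM, filterByExpr with a minimum count of 10 and total of 15, robust quasi-likelihood, Benjamini-Hochberg adjusted p under 0.05), each on its own 6 libraries and the interaction on 12, after tests on simulated data. TPM used the union of exons. Named in the text are all 9 genes, other isozymes of their families, up to 3 called genes in each direction of each list by size of log2 fold change, the nearest profile of each isozyme and label checks. Some genes these rules name, and the results that need them, are not reported here. Genes given beside these for their liver values (Mlxipl, Slc2a2, G6pc, Eno1 and Pck1) and the promoter letters CACGGG were chosen after values were seen. In liver, libraries of 1 number deviated together across genotypes (correlations 0.32, 0.38 and 0.40 over 12408 genes). The pairing is read from the data only, since the labels do not say what a number shares. Alternatives were DESeq2 1.42.0 (size factors or the Wald test), library totals, no low-count filter, a mean of at least 1 CPM, robust fitting off, 1 fit of all 12 libraries, a replicate block, each library left out, and other gene lengths. Values of 3 counts or fewer in a library were read as at the floor; exact intervals cover counting error only.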

Additional observations from a re-analysis of the deposited data

How the results depend on the processing

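No call or direction of an isozyme between brain and liver changed, in 79 of 79 and 60 of 60 (leave-one-out) values in the wild type and 72 of 72 and 54 of 54 in the knockout. Genes called between genotypes in liver went from 0 to 10 with the DESeq2 Wald test, 4 with no low-count filter and 2 with the replicate block, and 0 to 1 with 1 library left out (1 without wild-type liver replicate 2). In the interaction they went from 0 to 1 with the DESeq2 Wald test and 2 with the replicate block. In brain 0 were called under the block. Same-numbered brain libraries correlated at 0.75, 0.70 and -0.03 for numbers 1, 2 and 3. Libraries of number 1, and those of number 2, thus deviated together across genotypes, and those of number 3 did not. The main fits used no block in either tissue, and the block was an alternative in both. The block changed no call of an isozyme. The listed genes called higher and lower in brain went from 25 and 41 to 39 and 25 (wild type) and from 20 and 43 to 38 and 25 (knockout) with library totals. Values near 0 changed sign without a call: in brain Pfkl (0.0015) and Aldoa (0.00020) in the 12-library fit and Pfkl (0.0037) with the replicate block, and in liver Aldoa (-0.0013) with library totals. With 1 library left out, brain log2 values ran from -0.13 to 0.15 for Pfkl, -0.063 to 0.10 for Pfkp, -0.053 to 0.13 for Hk1, -0.11 to 0.10 for Aldoa, -0.22 to 0.073 for its second row and -0.11 to 0.00031 for Eno2. In liver they ran from -0.039 to 0.14 for Aldoa, -0.29 to 0.50 for Pklr, -0.078 to 0.26 for Pfkp and -0.038 to 0.38 for Aldoc. In the interaction they ran from -0.27 to 0.058 for Pfkl, -1.60 to 2.67 for Pklr, -0.11 to 0.22 for Pfkp, -0.080 to 0.17 for Aldoa and -3.21 to 0.093 for its second row. The cause was not tested. Of 48 isozyme share values, taken with the longest coding transcript or with counts not divided by length, 32 moved by more than 1 SD. With counts not divided by length, Pfkp led Pfkm by group mean in wild-type brain, at 45.0% against 40.5%. With 1 library left out, the share of Eno2 in enolase TPM ran from 0.0454% (without wild-type liver replicate 3) to 0.0851% in wild-type liver and from 0.0105% (without knockout liver replicate 1) to 0.0458% in knockout liver, and that of Pkm in pyruvate kinase TPM from 3.18% (without knockout liver replicate 2) to 6.31% in knockout liver.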
